A study of Macaca mulatta with 30 samples.

Results

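Keratins and claudins, the filament and junction proteins of epithelia, were followed across the parotid, submandibular and sublingual glands, the pancreas and the liver of rhesus macaques (Macaca mulatta). The genes were all rows of the deposited table whose symbol is KRT or CLDN followed by a number, keratin-associated proteins excluded, and whose mean reached at least 1 TPM in at least 1 tissue. TPM is a transcript abundance corrected for transcript length and expressed on a common total for all libraries, so levels can be compared between genes. Of 21292 gene rows, 67 carried such a symbol and 33 reached the minimum: 16 keratins and 17 claudins. The members closest to the minimum were CLDN11 (highest tissue mean 1.67 TPM), CLDN9 (1.37 TPM) and KRT32 (1.01 TPM). Just below it were KRT12 (0.991 TPM), KRT25 (0.862 TPM) and KRT1 (0.756 TPM).

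Keratins are intermediate filament proteins that assemble as pairs of one type I and one type II chain, and each kind of epithelium is known for its own pair. Simple glandular and hepatic epithelia make KRT8 with KRT18, basal and myoepithelial cells make KRT5 with KRT14, and the upper layers of the oral mucosa make KRT13 with KRT4. KRT4 and KRT19, the latter a common duct keratin, were not analysed here. Claudins span the membrane at tight junctions: some, such as CLDN3 and CLDN4, seal the space between cells, and others, such as CLDN2, CLDN10 and CLDN15, form channels through it for selected ions. In salivary glands and pancreas these paracellular channels take part in the secretion of fluid.

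Each of 6 animals, 4 female and 2 male, gave 1 library per tissue, which makes 30 libraries and 6 biological replicates per tissue. The labels name no treatment and no age. RNA came from sections of frozen tissue. Per the library names, animal 3 gave its right parotid gland and the other animals their left. In bulk tissue, fewer cells of a type and less RNA per cell cannot be told apart, and this holds for every level given here.

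Several libraries stood apart from their tissue. Pancreas markers, a list of 13 genes, had a median of 8698 to 32560 TPM in 5 pancreas libraries and of 279 TPM in that of animal 4, where the median of 8 adipose markers was 879 TPM, against 1.06 to 71.3 TPM. In the submandibular library of animal 4, the median of 12 salivary markers was 71.8 TPM, against 2174 to 3817 TPM in the other 5, and the adipose median was 687 TPM. The parotid library of animal 6 held a median of 11067 TPM over 9 skeletal muscle markers, and the other 5 parotid libraries held 0.621 to 956 TPM. The salivary markers of parotid library 6 had a median of 599 TPM, within the 365 to 951 TPM of the other 5. In sublingual gland the median of the muscle markers ran from 1.61 to 2956 TPM, and its part in the sublingual results was not tested. Liver markers had medians of 4844 to 9292 TPM in all 6 liver libraries. Counts of called genes are given below with and without these 3 libraries, called the 3 atypical libraries. The 10 most abundant genes took between 11.1% and 81.4% of a library, and the number of genes at 1 TPM or more ran from 8477 to 13515.

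The sublingual libraries of animals 1 and 4 differed in another way. All 19 measured markers of squamous mucosa (genes of the stratified oral lining, none of them a keratin or claudin) were higher in these libraries than in any of the other 4 sublingual libraries. Their summed level was 35868 and 94748 TPM, against 275 to 741 TPM in the other 4 and 39.3 to 618 TPM in the other tissues. CRNN, which encodes cornulin of the upper squamous layers, stood at 1641 and 5297 TPM in animals 1 and 4, and at 0.0531 to 16.9 TPM in the other 4, so it was not at 0 in any sublingual library. The median of the salivary markers was 338 and 265 TPM in animals 1 and 4, against 1183 to 3777 TPM in the other 4. Of the 33 keratins and claudins, 15 were higher in both of these libraries than in all the other 4 sublingual libraries, and 6 were lower. KRT3, KRT16, KRT32 and CLDN17 are among the 15. They met the minimum of 1 TPM only through these 2 libraries, so their place there followed from how the genes were chosen. Among the 14504 genes that met the same minimum in a tissue, 19.3% were higher and 6.49% lower in this way. The part of this squamous signal in the sublingual results was not tested, and counts of called genes are given with and without these 2 libraries.

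**Figure D1:**
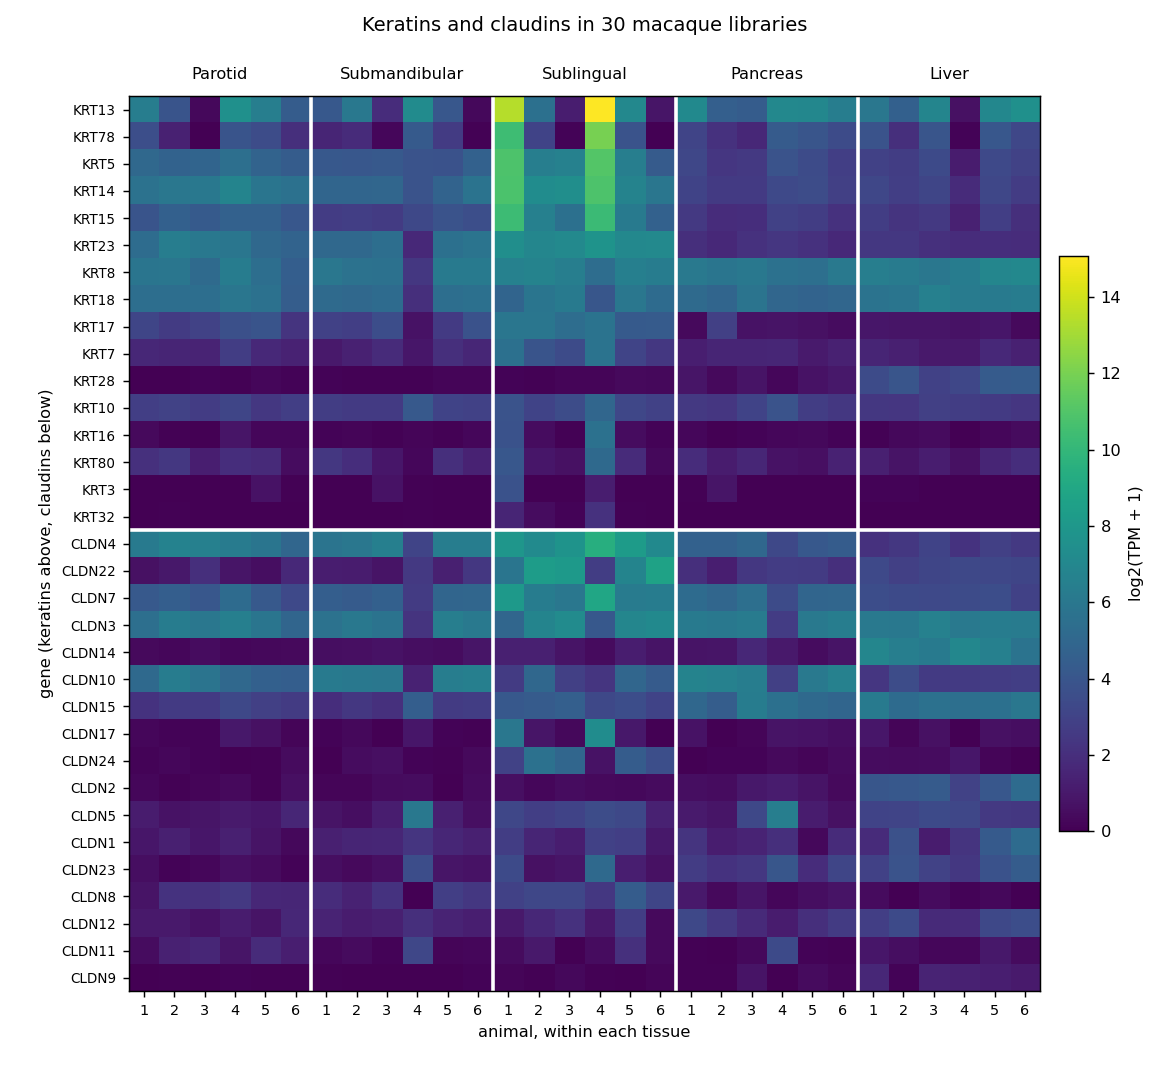
Level of each keratin (above the white line) and claudin (below it) in all 30 libraries, as log2(TPM + 1), with tissues side by side and animals 1 to 6 within each tissue. The brightest cells are KRT13, at 10694 and 34537 TPM in the sublingual libraries of animals 1 and 4, while CLDN14 and CLDN2 are higher in every liver library than in any library of another tissue.

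Differences between tissues were tested with limma on log2(TPM + 1) over 13550 genes, with animal as a block, and 27 of the 33 keratins and claudins were abundant enough to enter. The other 6 were CLDN9, CLDN17, CLDN24, KRT3, KRT16 and KRT32. Passing this filter depended on the libraries where a gene is high. A gene was called at an adjusted p under 0.05. Counts made without 1 animal, without the animal block or with only the 12 libraries compared have no share of all genes beside them. Log2 fold changes are for the first-named tissue against the second, and comparisons that share a tissue are not independent of each other. In all, 22 of the 27 tested genes were called in at least 1 of the 10 comparisons, as were 78.8% of all genes, and KRT13, KRT78, KRT80, CLDN3 and CLDN11 in none.

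The parotid and submandibular glands showed no difference past the threshold in any of the 27 genes. KRT15 was not called although it was 13.9 to 25.1 TPM in parotid and 5.25 to 13.3 TPM in submandibular gland, with no overlap. The fit takes 1 spread per gene from all 5 tissues, and why KRT15 was not called was not tested. With only the 12 libraries compared, 0 of the 27 genes passed as well. In limma 0 of 27 passed the threshold and 0 had an unadjusted p under 0.05, where 0.347% of all genes were called, 0.133% higher and 0.214% lower in parotid. With trimmed-mean scaling, which brings most genes to a common level in all libraries, 0 passed as well, against 0.716% of all genes. The sublingual gland differed from both. Against sublingual gland, 16 of 27 genes (59.3%) were called in parotid, 1 higher and 15 lower, where 41.5% of all genes were called, 0.893% higher and 40.6% lower. In submandibular gland 12 of 27 (44.4%) were called, 1 higher and 11 lower, where 27.9% of all genes were called, 0.753% higher and 27.2% lower. CLDN10 was the gene that was higher in each of these glands. The median log2 difference of all genes was -0.70 for parotid and -0.56 for submandibular against sublingual gland, and trimmed-mean scaling, which removes this shift, gave 4 genes in place of 16, 2 in each direction, and 6 in place of 12, with 1 higher and 5 lower. After that scaling 17.5% and 14.7% of all genes were called. Without the sublingual libraries of animals 1 and 4, 11 genes were called in each comparison, all of them lower in parotid or submandibular gland, against 35.6% and 21.5% of all genes. Without the 3 atypical libraries, 16 and 15 were called, against 69.4% and 69.7% of all genes. Without animal 1, 9 genes were called for parotid against sublingual gland.

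Against pancreas, the sublingual gland differed in 13 of 27 genes (48.1%), 11 higher and 2 lower, where 13.9% of all genes were called, 10.4% higher and 3.51% lower. The count was 14 after trimmed-mean scaling, with 10 higher and 4 lower (background 21.3%), and without sublingual libraries 1 and 4 it was 13, 10 higher and 3 lower (background 12.2%). Without the 3 atypical libraries it was 16, against 37.8% of all genes. In parotid, 10 genes (37%) were called against pancreas, 6 of them higher and 4 lower, where 15.8% of all genes were called, 2.24% higher and 13.6% lower. Trimmed-mean scaling gave 8 higher and 3 lower (background 17.4%), omission of the 3 atypical libraries 11 genes (background 28.2%), and omission of animal 2 or of animal 3 gave 5. KRT28 was among the 4 lower genes, at no more than 0.184 TPM in parotid and 0.936 TPM in pancreas. It entered the test through liver, and this difference was called in 7 of the 14 alternative settings. In submandibular gland, 5 genes (18.5%) were called against pancreas, 4 of them higher and 1 lower, where 9.71% of all genes were called, 2.25% higher and 7.46% lower. That count was 9 without the 3 atypical libraries (background 34.9%) or without animal 4, 7 with trimmed-mean scaling (background 16.1%), and 2 or 3 without any one of the other animals.

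Against liver, the shares called were nearer to those of all genes in most comparisons. The parotid gland differed in 17 genes (63%), 8 higher and 9 lower, where 58% of all genes were called, 4.61% higher and 53.4% lower. The submandibular gland differed in 16 (59.3%), 6 higher and 10 lower, where 50.7% were called, 5.68% higher and 45.1% lower. After trimmed-mean scaling the directions became 12 higher and 7 lower for parotid (background 43.5%), and 10 higher and 5 lower for submandibular gland (background 46.6%). The sublingual gland differed from liver in 17 genes (63%), 11 higher and 6 lower, where 31.5% of all genes were called, 12.8% higher and 18.7% lower. That count was 17 with trimmed-mean scaling (background 44.1%) and 16 without sublingual libraries 1 and 4 (background 27.9%). The pancreas differed from liver in 7 genes (25.9%), 3 higher and 4 lower, where 30.4% of all genes were called, 6.76% higher and 23.6% lower. It was 6 with trimmed-mean scaling (background 36.8%) and 11 without animal 4. Without the 3 atypical libraries the counts against liver were 20 for parotid and 18 for submandibular gland (73.9% of all genes in each), 19 for sublingual gland (45.4%) and 10 for pancreas (52.1%). The genes counted as lower than liver in each of the 4 tissues include CLDN2, CLDN14 and KRT28, which entered the test through their liver levels and had to differ.

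The simple epithelial keratins KRT8 (type II) and KRT18 (type I), which pair in glandular cells and hepatocytes, were present in every library. KRT8 ranged from 62.9 to 131 TPM in liver (median 83.9), from 40.5 to 108 TPM in sublingual gland (88.6), from 44.8 to 68.0 TPM in pancreas (61.9), from 4.46 to 71.3 TPM in submandibular gland (55.5) and from 21.4 to 78.3 TPM in parotid (49.9). KRT18 ranged from 52.4 to 94.1 TPM in liver (median 73.4), from 15.1 to 73.8 TPM in sublingual gland (47.2), from 21.2 to 59.3 TPM in parotid (42.3), from 3.10 to 47.1 TPM in submandibular gland (37.3) and from 27.1 to 54.7 TPM in pancreas (30.1). The tissues overlapped for both genes, apart from KRT18 in submandibular gland and liver. The ratio of KRT8 to KRT18 had a median of 1.52 over the 30 libraries and ran from 0.668 to 3.47. The largest ratio lay in sublingual gland, where the range was 1.19 to 3.47.

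Of the 10 comparisons, submandibular gland against liver was the one in which these 2 genes were called. KRT8 differed there by -1.17 on the log2 scale (SE 0.43, adjusted p 0.0249) and KRT18 by -1.39 (SE 0.41, adjusted p 0.00738), beside a median of -0.70 for all genes. With trimmed-mean scaling neither was called, at -0.11 (adjusted p 0.896) and -0.31 (adjusted p 0.671). The submandibular library of animal 4 held 4.46 TPM of KRT8 and 3.10 TPM of KRT18, far below the other 5 submandibular libraries at 47.9 to 71.3 TPM and 32.7 to 47.1 TPM. Without the 3 atypical libraries, the differences of submandibular gland from liver were smaller, at -0.63 for KRT8 (adjusted p 0.0272) and -0.90 for KRT18 (adjusted p 0.00676). KRT18 was then also lower in pancreas than in liver (-1.09, SE 0.28, adjusted p 0.00269), as was KRT8 (-0.62, SE 0.25, adjusted p 0.0427). KRT8 was likewise lower in parotid (-0.71, adjusted p 0.014) and KRT18 in sublingual gland (-0.80, adjusted p 0.0172) than in liver. In the pancreas library of animal 4, which was low in pancreas markers, KRT8 was 49.0 TPM and KRT18 30.4 TPM, within the range of the other 5 pancreas libraries. The median of the mesothelium markers (simple epithelial cells that line organs) there was 9.17 TPM and their sum 1142 TPM, against 0.325 to 2.79 TPM and 6.25 to 81.8 TPM in the other 5. Its part in these levels was not tested.

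Among the simple keratins, KRT23 set the sublingual gland apart, while KRT7 had its highest median there but overlapped with parotid. KRT23, a type I keratin of simple epithelia, was 118 to 209 TPM in sublingual gland (median 138), 26.4 to 83.3 TPM in parotid (49.5), 2.30 to 54.7 TPM in submandibular gland (37.9), 2.28 to 4.32 TPM in pancreas (3.22) and 2.70 to 4.49 TPM in liver (3.04). All 6 sublingual libraries lay above all libraries of the other tissues, and pancreas and liver overlapped. The log2 fold change of sublingual gland was 5.2 against pancreas (SE 0.45, adjusted p 1.15e-08) and 5.11 against liver (SE 0.45, adjusted p 5.96e-10). Parotid was higher than pancreas by 3.57 (SE 0.45, adjusted p 2.59e-06) and lower than sublingual gland (-1.63, SE 0.45, adjusted p 0.00708). The difference from pancreas was 4.88 without sublingual libraries 1 and 4. Submandibular gland differed from sublingual gland by -2.44 (SE 0.45, adjusted p 0.000611), and by -1.79 without the 3 atypical libraries (adjusted p 4.9e-06). With trimmed-mean scaling the differences of KRT23 between sublingual gland and the other salivary glands were not called, at -0.58 for parotid (adjusted p 0.544) and -1.49 for submandibular gland (adjusted p 0.0933).

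KRT7, a type II keratin typical of duct cells, was 4.51 to 52.2 TPM in sublingual gland (median 12), 1.74 to 5.80 TPM in parotid (2.06), 0.883 to 3.05 TPM in submandibular gland (1.82), 1.11 to 2.07 TPM in pancreas (1.81) and 1.03 to 2.29 TPM in liver (1.53). The sublingual libraries of animals 1 and 4 held 45.9 and 52.2 TPM, and the other 4 held 4.51 to 14.1 TPM, overlapping with parotid, which reached 5.80 TPM. Sublingual gland was above pancreas in all 6 animals, with no overlap (log2 fold change 2.62, SE 0.39, adjusted p 2.36e-05), and by 1.80 without those 2 libraries (adjusted p 0.000175). KRT80, another type II keratin, had tissue means of 1.49 to 9.12 TPM and was called in no comparison. Its 2 highest libraries were sublingual 4 and 1, at 34.0 and 16.4 TPM, against 0.275 to 2.64 TPM in the other 4.

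**Figure D2:**
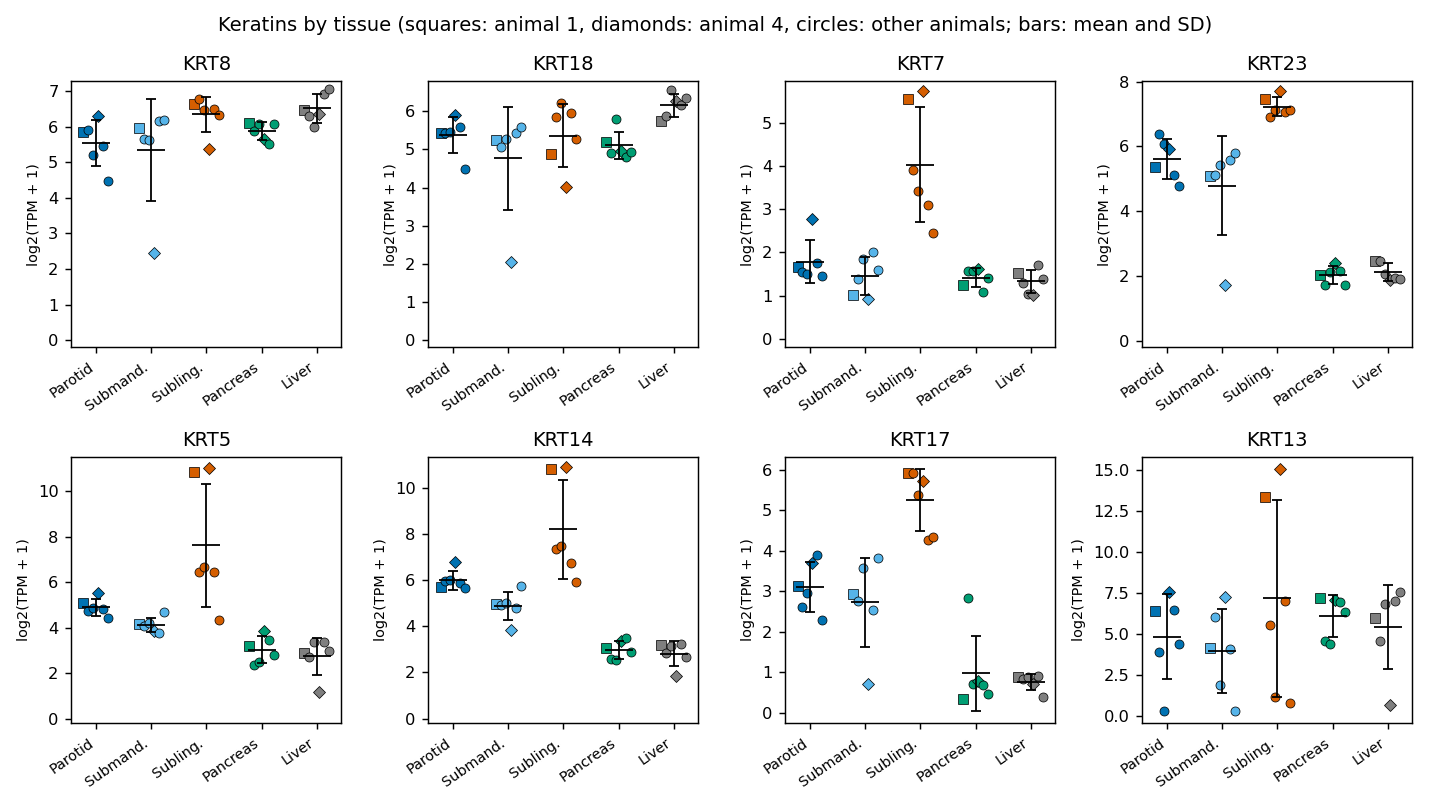
Levels of 8 keratins as log2(TPM + 1) in the 5 tissues, with 1 point per library, squares for animal 1, diamonds for animal 4, circles for the other animals, and bars for the mean and SD on the log scale. KRT23 is higher in all 6 sublingual libraries than in any other library, while KRT5, KRT14 and KRT13 have their highest points in sublingual libraries 1 and 4.

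All 4 tested basal and stress keratins (KRT5, KRT14, KRT15 and KRT17) were called higher in sublingual gland than in parotid, submandibular gland, pancreas and liver. Of all genes, 40.6%, 27.2%, 10.4% and 12.8% were called higher in sublingual gland in these comparisons. All 4 were also higher in parotid than in liver, as were 4.61% of all genes. Without sublingual libraries 1 and 4, KRT5 and KRT14 were not called between parotid and sublingual gland. After trimmed-mean scaling none of these 4 was called between parotid and sublingual gland, with adjusted p from 0.0534 (KRT15) to 0.249 (KRT14). KRT5 and KRT14 are the filament pair of basal and myoepithelial cells, KRT15 is a type I keratin of basal cells, and KRT17 is a type I keratin of stressed and myoepithelial cells. KRT14, KRT16 and KRT17 lie next to each other in the RefSeq annotation (assembly T2T-MMU8v2.0, which lists 32 of the 33 symbols) and are similar in sequence. How reads shared among them were assigned is not given in the sources used here, so the split between these 3 genes is uncertain.

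KRT14 was 58.7 to 1900 TPM in sublingual gland (median 169), 49.3 to 109 TPM in parotid (59.3), 13.2 to 52.9 TPM in submandibular gland (29.3), 4.80 to 10.2 TPM in pancreas (6.85) and 2.58 to 8.33 TPM in liver (6.90). Within sublingual gland, animals 1 and 4 held 1809 and 1900 TPM and the other 4 held 58.7 to 177 TPM, so the tissue's spread lay between these sets of libraries. All salivary libraries were above all pancreas and liver libraries. Sublingual gland exceeded pancreas by 5.21 on the log2 scale (SE 0.59, adjusted p 3.62e-07) and by 3.85 without libraries 1 and 4 (adjusted p 1.25e-07). Parotid exceeded pancreas by 3.01 (SE 0.59, adjusted p 0.000628) and submandibular gland did so by 1.89 (SE 0.59, adjusted p 0.039). The submandibular difference was called in 8 of the 14 alternative settings (largest adjusted p 0.21). Against sublingual gland, parotid differed by -2.20 (SE 0.59, adjusted p 0.00527), which without libraries 1 and 4 was -0.83 and not called (adjusted p 0.0953).

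KRT5 followed a like order, at 18.9 to 2071 TPM in sublingual gland (median 92.8), 20.2 to 44.8 TPM in parotid (27.5), 12.6 to 24.7 TPM in submandibular gland (16.3), 4.15 to 13.6 TPM in pancreas (7.09) and 1.24 to 9.39 TPM in liver (6.64). The 2 highest sublingual values, 1851 and 2071 TPM, were again those of animals 1 and 4, and the other 4 held 18.9 to 98.8 TPM, overlapping with parotid and submandibular gland. Sublingual gland exceeded pancreas by 4.59 (SE 0.70, adjusted p 2.63e-05) and by 2.94 without those libraries (adjusted p 4.04e-05). The ratio of KRT5 to KRT14 ran from 0.322 to 1.48 over the 30 libraries, with medians of 0.428, 0.549 and 0.688 in parotid, submandibular and sublingual gland, and of 0.973 in pancreas and 1.01 in liver. Parotid against sublingual gland (-2.72, SE 0.70, adjusted p 0.00405) was not called for KRT5 without libraries 1 and 4 (-1.07, adjusted p 0.0667). Parotid against pancreas had a log2 fold change of 1.87 for KRT5 (adjusted p 0.0665) and was called without libraries 1 and 4 (adjusted p 0.00165).

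KRT15 was 24.4 to 1283 TPM in sublingual gland (median 81.4), 13.9 to 25.1 TPM in parotid (21.1), 5.25 to 13.3 TPM in submandibular gland (7.17), 2.70 to 6.43 TPM in pancreas (4.05) and 1.63 to 5.82 TPM in liver (4.33). Animals 1 and 4 gave 1283 and 1259 TPM in sublingual gland and the other 4 gave 24.4 to 93.2 TPM. Sublingual gland was above pancreas by 4.90 (SE 0.62, adjusted p 2.05e-06) and by 3.36 without these libraries (adjusted p 1.96e-07). Parotid was above pancreas by 2.02 (SE 0.62, adjusted p 0.0276), which was not called without the 3 atypical libraries (1.88, adjusted p 0.0559). In the liver library of animal 4, KRT5 (1.24 TPM), KRT14 (2.58 TPM), KRT15 (1.63 TPM) and the squamous keratin KRT13 (0.577 TPM) were each at their lowest among the liver libraries, and the summed level of the squamous markers was also lowest there (39.3 TPM, against 118 to 416 TPM in the other 5).

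KRT17 differed from these 3 in that the sublingual libraries of animals 1 and 4 did not stand apart. KRT17 was 18.4 to 59.7 TPM in sublingual gland (median 46.2), 3.90 to 14 TPM in parotid (7.26), 0.655 to 13.2 TPM in submandibular gland (6.23), 0.280 to 6.18 TPM in pancreas (0.623) and 0.310 to 0.872 TPM in liver (0.813). The sublingual libraries of animals 1 and 4 held 59.7 and 52.1 TPM, and that of animal 2 held 59.2 TPM. Sublingual gland was above every other tissue with no overlap, by 4.28 against pancreas (SE 0.45, adjusted p 1.47e-07; 3.88 without libraries 1 and 4), 4.49 against liver (SE 0.45, adjusted p 6.67e-09), and with parotid at -2.16 (SE 0.45, adjusted p 0.00087) and submandibular gland at -2.53 (SE 0.45, adjusted p 0.000445) against it. The last 2 were not called with trimmed-mean scaling, at -1.17 (adjusted p 0.141) and -1.58 (adjusted p 0.0533). KRT16, the stress keratin that was too low to test, was 12.8 and 47.4 TPM in sublingual libraries 1 and 4, 0.0574 to 0.429 TPM in the other 4 and at most 0.807 TPM in the 24 libraries of other tissues.

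KRT13, the type I keratin of the suprabasal oral mucosa, had the highest level of any keratin or claudin and was called in no comparison. It was 10694 and 34537 TPM in sublingual libraries 1 and 4, and 47.0, 1.28, 130 and 0.778 TPM in those of animals 2, 3, 5 and 6. In the 24 libraries of other tissues it was 0.242 to 189 TPM (median 63.4) and reached 1 TPM in 21. Medians by tissue were 103 TPM in pancreas, 88.0 TPM in liver, 51.9 and 16.4 TPM in parotid and submandibular gland, each with a wide spread. The 6 liver libraries spanned 0.577 TPM, in animal 4, to 189 TPM, and the 6 pancreas libraries 20.3 to 144 TPM.

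KRT78, a type II keratin of stratified epithelia, moved with KRT13. KRT78 was 1342 and 4052 TPM in sublingual libraries 1 and 4, 0.0282 to 13.4 TPM in the other 4, and 0.0209 to 19.5 TPM in other tissues, with medians of 8.63 and 11 TPM in pancreas and liver, and of 6.74 and 2.27 TPM in parotid and submandibular gland. Over the 26 libraries with at least 1 TPM of KRT13, the ratio of KRT78 to KRT13 had a median of 0.118 and ran from 0.0403 to 0.317. Tissue medians of this ratio lay between 0.115 (submandibular gland) and 0.130 (liver), and it was 0.126 and 0.117 in sublingual libraries 1 and 4. SPRR3, a squamous cornified envelope gene that is neither keratin nor claudin, had a median ratio to KRT13 of 1.28 (0.0284 to 2.06) over the same libraries, and reached 191 TPM outside sublingual gland. In pancreas and liver its median ratio was 1.40 and 1.29, and in sublingual libraries 1 and 4 the ratio was 1.38 and 1.12. The origin of these transcripts in each library was not tested.

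**Figure D3:**
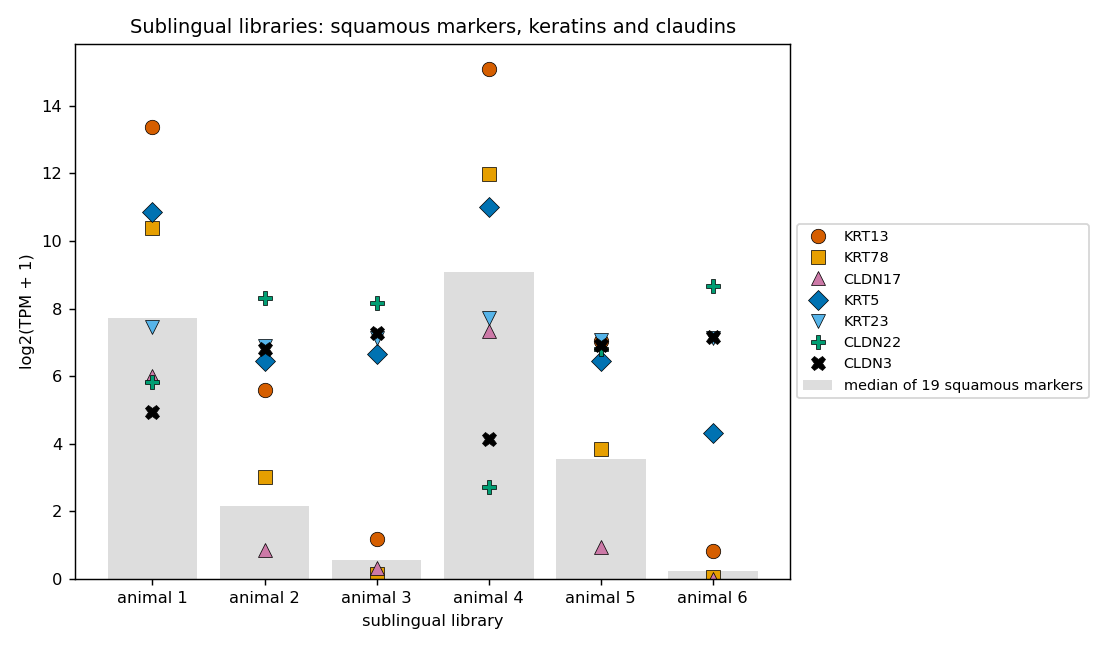
The 6 sublingual libraries, with 7 keratins and claudins as points and the median of 19 squamous markers as grey bars, all as log2(TPM + 1). In animals 1 and 4 the bars and KRT13, KRT78, CLDN17, KRT5 and KRT23 are highest, while CLDN22 and CLDN3 are lowest. KRT23 is 175 and 209 TPM in these libraries and 118 to 138 TPM in the other 4.

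The other keratins of stratified epithelia were lower. KRT10, the type I keratin of the upper epidermis, was 6.62 to 30.7 TPM in sublingual gland (median 9.37), with tissue means of 4.98 to 7.76 TPM elsewhere. It was higher in sublingual gland than in liver (1.02, SE 0.25, adjusted p 0.00216) and pancreas (0.76, SE 0.25, adjusted p 0.041), the latter not called without libraries 1 and 4 (0.47, adjusted p 0.303). Parotid against sublingual gland was -0.77 for KRT10 (adjusted p 0.017), and with trimmed-mean scaling its sign was the opposite (0.17, adjusted p 0.694). KRT3, known from the cornea, had a highest tissue mean of 2.33 TPM, in sublingual gland, from 12.7 TPM in library 1 and 1.29 TPM in library 4. The hair keratin KRT32 was likewise highest in these libraries, at 1.94 and 3.44 TPM.

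KRT28, a type I keratin known from the inner root sheath of hair, was measured in liver. It was 6.52 to 19.7 TPM in the 6 liver libraries (median 12.2) and at most 0.936 TPM in the 24 other libraries, with no overlap. The mean of the pancreas libraries was 0.617 TPM, and those of the salivary glands lay between 0.0871 TPM (parotid) and 0.169 TPM (sublingual gland). KRT28 reached 1 TPM in 0 of the 24 other libraries and passed the filter through the 6 liver libraries alone, so its differences from liver are given as levels only. KRT28 lies between KRT27 and KRT10 in the RefSeq annotation. KRT27, another root sheath keratin, was at 0.0868 to 0.217 TPM in liver, and KRT10 at 4.20 to 6.15 TPM, its lowest tissue mean.

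CLDN4, which seals tight junctions, was 142 to 708 TPM in sublingual gland (median 230), 30.5 to 103 TPM in parotid (74.0), 7.40 to 88.3 TPM in submandibular gland (73.1), 8.51 to 32.0 TPM in pancreas (22.1) and 3.43 to 7.22 TPM in liver (4.53). Sublingual gland lay above and liver below all other tissues, and parotid and submandibular gland overlapped. CLDN4 was called in 8 of the 10 comparisons: sublingual gland exceeded liver by 5.43 (SE 0.46, adjusted p 2.82e-10) and pancreas by 3.60 (SE 0.46, adjusted p 2.6e-06), and pancreas exceeded liver by 1.83 (SE 0.46, adjusted p 0.00331). Parotid exceeded pancreas by 1.73 (SE 0.46, adjusted p 0.0115). Without sublingual libraries 1 and 4, the differences of sublingual gland from liver and pancreas were 4.83 and 3.00. After omission of the 3 atypical libraries CLDN4 was also higher in submandibular gland than in pancreas (1.62, adjusted p 0.000375). The differences from sublingual gland, -1.87 for parotid (adjusted p 0.00328) and -2.28 for submandibular gland (adjusted p 0.00123), were not called with trimmed-mean scaling, at -0.81 (adjusted p 0.412) and -1.39 (adjusted p 0.148).

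CLDN7, a barrier claudin that also lines the sides of epithelial cells, was 61.3 to 487 TPM in sublingual gland (median 80.1), 9.74 to 44.6 TPM in pancreas (30.9), 5.14 to 30.9 TPM in submandibular gland (23.0), 8.91 to 36.8 TPM in parotid (17.6) and 6.63 to 10.8 TPM in liver (9.82). Sublingual libraries 1 and 4 held 280 and 487 TPM, and the other 4 held 61.3 to 81.0 TPM, still above every library of another tissue. Sublingual gland exceeded pancreas by 2.15 (SE 0.48, adjusted p 0.00218) and by 1.30 without these libraries (adjusted p 0.0447), and liver by 3.63 (SE 0.48, adjusted p 8.07e-07), or 2.78 without them. Pancreas exceeded liver by 1.48 (SE 0.48, adjusted p 0.0199), a difference called in 9 of the 14 alternative settings (largest adjusted p 0.078). Omission of the 3 atypical libraries made that 1.96, and submandibular gland (1.49, adjusted p 0.000334) and parotid (1.02, adjusted p 0.0081) exceeded liver too. CLDN7 overlaps SLC2A4 in the RefSeq annotation, so reads in the shared stretch could belong to either gene.

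CLDN3, the neighbour of CLDN4 in the genome and also a barrier claudin, was called in no comparison. It was 16.6 to 155 TPM in sublingual gland (median 115), 65.3 to 98.9 TPM in liver (71.5), 5.40 to 81.4 TPM in pancreas (69), 29.6 to 91.8 TPM in parotid (60.1) and 3.89 to 84.7 TPM in submandibular gland (59.4). All tissues overlapped. Within sublingual gland CLDN3 was 29.9 and 16.6 TPM in libraries 1 and 4, and 111 to 155 TPM in the other 4. CLDN3 was also low where tissue markers were low, at 3.89 TPM in submandibular library 4 and 5.40 TPM in pancreas library 4.

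CLDN14, a barrier claudin, marked the liver. It was 52.7 to 126 TPM in liver (median 89.9), 0.436 to 2.17 TPM in pancreas (0.764), 0.334 to 1.54 TPM in sublingual gland (1.05), 0.387 to 0.797 TPM in submandibular gland (0.522) and 0.190 to 0.441 TPM in parotid (0.280). The 6 liver libraries did not overlap with the 24 others. CLDN14 reached 1 TPM in 5 of these 24, fewer than the filter asks for, so it entered the test through liver and its differences from liver are given as levels only. It was called between parotid and sublingual gland (-0.62, SE 0.24, adjusted p 0.0391), but not with trimmed-mean scaling (-0.26, adjusted p 0.415).

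CLDN1, the barrier claudin of skin that is also made by hepatocytes, was 1.18 to 37.1 TPM in liver (median 8.04), with the highest value in animal 6 and the lowest in animal 3, and its means elsewhere were 0.952 to 3.75 TPM. It was lower in parotid (-2.16, SE 0.51, adjusted p 0.000942), pancreas (-1.55, SE 0.51, adjusted p 0.0212) and submandibular gland (-1.46, SE 0.51, adjusted p 0.0192) than in liver, although the ranges overlapped. The last 2 did not hold in every setting: with trimmed-mean scaling they were -1.20 (adjusted p 0.0555) and -0.70 (adjusted p 0.243).

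CLDN5 and CLDN8 are barrier claudins with different known sites, CLDN5 in vessel walls and CLDN8 in ducts. CLDN5 was 87.2 TPM in pancreas library 4 and 65.8 TPM in submandibular library 4, against 0.599 to 8.70 TPM and 0.489 to 1.47 TPM in the other 5 libraries of each tissue. The endothelium markers were also high there, with sums of 642 TPM (others 25.7 to 122 TPM) and 432 TPM (others 13.0 to 21.6 TPM), and their part in the CLDN5 values was not tested. With all libraries CLDN5 was lower in parotid than in liver (-1.89, SE 0.63, adjusted p 0.013) and sublingual gland (-1.79, SE 0.63, adjusted p 0.0263). Without the 3 atypical libraries it was also lower in pancreas (-1.47, adjusted p 0.000309) and submandibular gland (-1.97, adjusted p 5.65e-06) than in liver. CLDN8 was 4.51 to 20.2 TPM in sublingual gland (median 8.08), had means of 2.80 and 3.09 TPM in parotid and submandibular gland, and of 0.596 TPM in pancreas and 0.181 TPM in liver. Sublingual gland exceeded pancreas in all 6 animals (2.57, SE 0.34, adjusted p 3.48e-06), and by 2.73 without libraries 1 and 4.

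CLDN11 and CLDN9 were the lowest claudins of the set. CLDN11, known from myelin and testis, was 9.47 TPM in pancreas library 4 and 8.28 TPM in submandibular library 4, and at most 0.352 TPM in the other libraries of these 2 tissues. In parotid it was 0.440 to 2.65 TPM (median 1.47). CLDN9 was 0.0872 to 2.20 TPM in liver (median 1.48) and at most 0.754 TPM elsewhere.

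**Figure D4:**
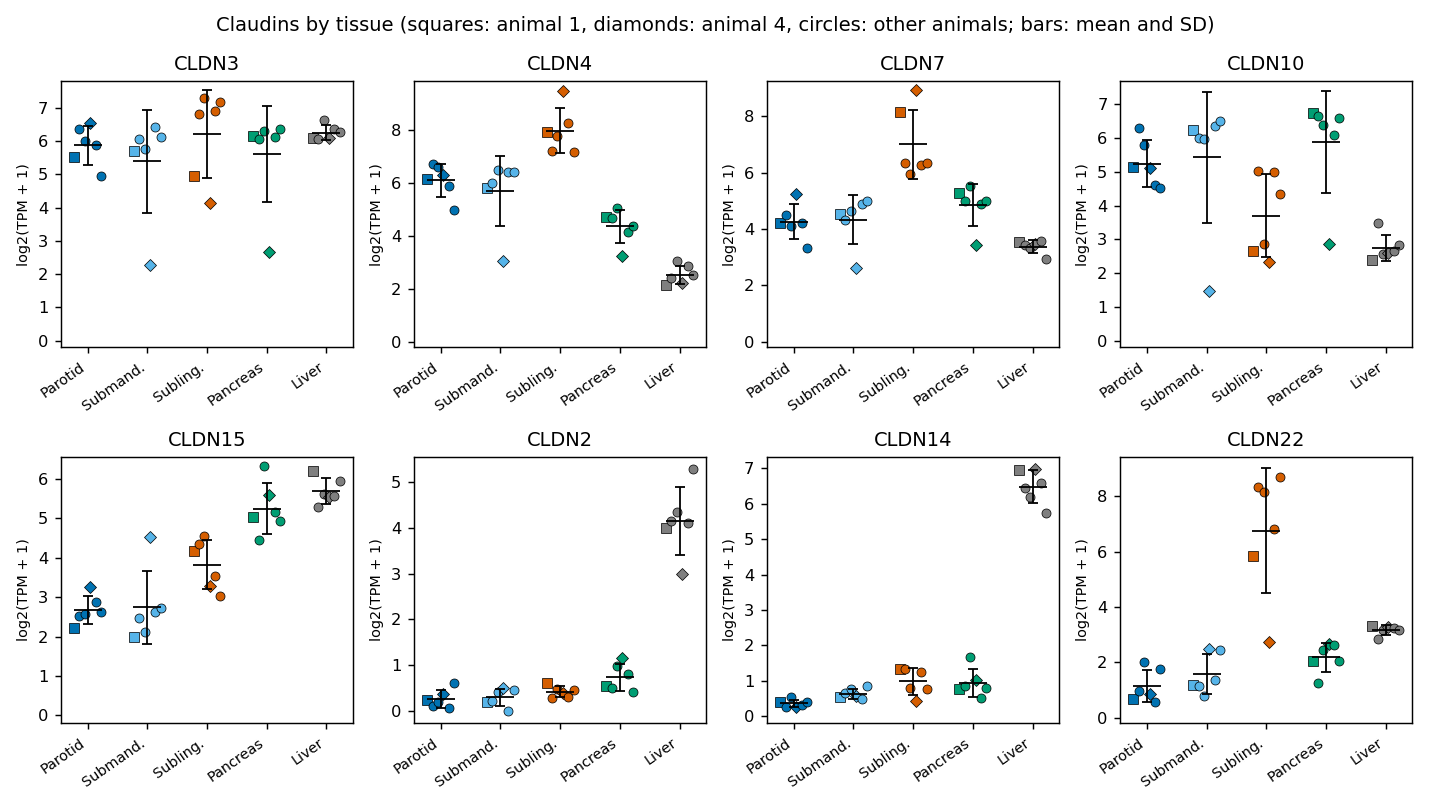
Levels of 8 claudins as log2(TPM + 1) in the 5 tissues, with 1 point per library, squares for animal 1, diamonds for animal 4, circles for the other animals, and bars for the mean and SD on the log scale. CLDN14 and CLDN2 separate liver from the 24 other libraries, and the diamonds of animal 4 are lowest for CLDN3, CLDN4, CLDN7 and CLDN10 in pancreas and submandibular gland.

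Of the channel-forming claudins, CLDN10, CLDN15, CLDN2 and CLDN17 were members. CLDN10, which forms ion channels in secretory and renal epithelia, was 6.21 to 105 TPM in pancreas (median 89.7), 1.76 to 89.8 TPM in submandibular gland (69), 22.0 to 78.1 TPM in parotid (33.7), 4.01 to 31.8 TPM in sublingual gland (12.9) and 4.26 to 10.2 TPM in liver (5.19). The lowest pancreas and submandibular values were both from animal 4, whose libraries were low in tissue markers, and the other 5 held 67.9 to 105 TPM and 62.1 to 89.8 TPM. Pancreas exceeded liver by 3.13 (SE 0.55, adjusted p 5.92e-05), and sublingual gland was below pancreas (-2.18, SE 0.55, adjusted p 0.0065) in all 6 animals. Parotid (1.54, SE 0.55, adjusted p 0.0278) and submandibular gland (1.72, SE 0.55, adjusted p 0.0219) exceeded sublingual gland. Without sublingual libraries 1 and 4, where CLDN10 was 5.24 and 4.01 TPM, these 2 were not called, at 1.31 (adjusted p 0.0985) and 1.5 (adjusted p 0.0867). With the 3 atypical libraries left out, pancreas exceeded liver by 3.61, sublingual gland was below pancreas (-2.67), and sublingual gland exceeded liver (0.95, adjusted p 0.0266).

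CLDN15, a cation channel known best from the intestine, was higher in liver and pancreas than in each salivary gland. It was 37.9 to 73.5 TPM in liver (median 47.3), 20.9 to 80.2 TPM in pancreas (33.3), 7.24 to 22.6 TPM in sublingual gland (13.9), 3.69 to 8.65 TPM in parotid (5.06) and 2.94 to 22.1 TPM in submandibular gland (4.88). Liver and pancreas overlapped, and the salivary glands overlapped with each other. Pancreas, from 20.9 TPM, also overlapped with sublingual gland, up to 22.6 TPM, and with submandibular library 4 at 22.1 TPM. Parotid was below pancreas by a log2 difference of -2.57 (SE 0.37, adjusted p 1.44e-05), submandibular gland by -2.51 (SE 0.37, adjusted p 2.52e-05) and sublingual gland by -1.43 (SE 0.37, adjusted p 0.00801). The differences of parotid and submandibular from sublingual gland, -1.14 and -1.08, were not called with trimmed-mean scaling, at -0.19 (adjusted p 0.619) and -0.36 (adjusted p 0.336). CLDN15 overlaps FIS1 in the RefSeq annotation.

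CLDN2, the claudin of cation and water pores in leaky epithelia, was 6.97 to 38.1 TPM in liver (median 16.4) and at most 1.22 TPM in the 24 other libraries. Tissue means elsewhere were 0.211 TPM (parotid) to 0.690 TPM (pancreas). CLDN2 reached 1 TPM in 1 of these 24, so it too entered the test through liver and is given by its levels. CLDN17, an anion channel, was 62.5 and 159 TPM in sublingual libraries 1 and 4, at most 0.924 TPM in the other 4 and at most 0.991 TPM in other tissues. It had medians of 0.871 TPM in sublingual gland, 0.559 TPM in pancreas, 0.553 TPM in liver, 0.169 and 0.0969 TPM in parotid and submandibular gland, and did not enter the test.

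CLDN22 and CLDN24, whose functions are little known, were high in sublingual gland. They were among the 6 keratins and claudins that were lower in libraries 1 and 4 than in the other 4, as were 9 of 12 salivary markers. CLDN22 was 5.58 to 408 TPM in sublingual gland (median 199), 6.24 to 8.94 TPM in liver (8.18), 1.39 to 5.33 TPM in pancreas (3.79), 0.736 to 4.58 TPM in submandibular gland (1.41) and 0.487 to 3.01 TPM in parotid (0.886). Its sublingual values were 56.1 and 5.58 TPM in animals 1 and 4 and 111 to 408 TPM in the other 4. Sublingual gland exceeded pancreas by 4.58 (SE 0.61, adjusted p 3.78e-06), and by 5.84 without those libraries (adjusted p 1.27e-10). CLDN24 was 6.82 and 0.634 TPM in animals 1 and 4, 11.3 to 47.7 TPM in the other 4, and at most 0.920 TPM in the other tissues. These genes overlap each other and DCTD in the RefSeq annotation, so the split of reads between them is uncertain. The ratio of CLDN24 to CLDN22 was 0.0278 to 0.179 in the 6 sublingual libraries.

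CLDN12 and CLDN23, the other claudins without an assigned barrier or channel role here, were highest in liver. CLDN12 was 2.43 to 10.8 TPM in liver (median 7.26), with means of 4.19 TPM in pancreas and 1.16 to 2.30 TPM in the salivary glands. Parotid was below liver (-1.70, SE 0.38, adjusted p 0.00053). CLDN23 was 4.38 to 19.6 TPM in liver (median 10.05), with means of 6.55 TPM in pancreas, 7.85 TPM in sublingual gland, 2.29 TPM in submandibular gland and 0.292 TPM in parotid. The sublingual mean came from 9.55 and 34.1 TPM in animals 1 and 4, against 0.579 to 1.40 TPM in the other 4. The submandibular mean came from 11.03 TPM in library 4, against 0.306 to 0.784 TPM in the other 5. Pancreas library 4 held 15.3 TPM, against 2.75 to 7.92 TPM in the other 5, and it stayed in the comparison that follows. Without sublingual libraries 1 and 4 CLDN23 was lower in sublingual gland than in pancreas (-1.73, SE 0.47, adjusted p 0.0138), which with all libraries was -0.73 (adjusted p 0.424).

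**Figure D5:**
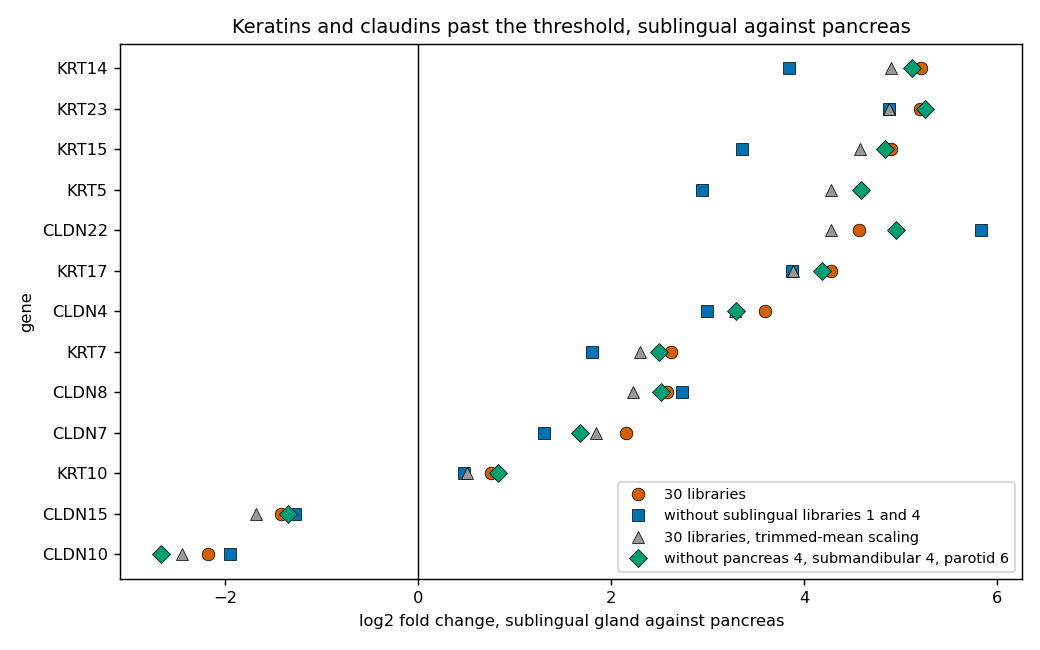
Log2 fold changes of sublingual gland against pancreas for the 13 keratins and claudins called in this comparison, under 4 settings shown by symbols. KRT5, KRT14 and KRT15 shrink without sublingual libraries 1 and 4 (squares), from 4.59 to 2.94 for KRT5, while CLDN22 grows from 4.58 to 5.84, and all 13 keep their direction.

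Partner genes of the same structures were counted in the same fits. Of 20 tested tight junction partners, 6 were higher and 2 lower in sublingual gland than in pancreas, where 10.4% of all genes were higher and 3.51% lower. In parotid 12 and in submandibular gland 10 were lower than in sublingual gland, as were 40.6% and 27.2% of all genes. In pancreas 1 was higher and 9 were lower than in liver, where 6.76% of all genes were higher and 23.6% lower. LSR, the lipolysis-stimulated receptor that seals tricellular junctions, was 26.1 TPM ± 10.3 in sublingual gland (SD, n = 6), 40.3 TPM ± 9.57 in liver and 10.8 TPM ± 2.95 in pancreas. It was higher in sublingual gland than pancreas by 1.16 (SE 0.28, adjusted p 0.0045), which was not called without sublingual libraries 1 and 4 (0.86, adjusted p 0.0675), and lower in pancreas than liver (-1.82, SE 0.28, adjusted p 9.75e-06). TJP3, a scaffold beneath the junction, was higher in sublingual gland than pancreas by 2.07 (SE 0.33, adjusted p 5.3e-05), and by 2.33 without those libraries. Without sublingual libraries 1 and 4 the sublingual counts against pancreas were 2 higher and 2 lower.

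Of 13 tested desmosome and keratin anchor genes, 4 were higher and 0 lower in sublingual gland than in pancreas, and 6 were higher and 1 lower in sublingual gland than in liver. Of all genes, 10.4% and 12.8% were higher in these comparisons. The counts without sublingual libraries 1 and 4 were 3 higher and 0 lower, and 4 higher and 1 lower. PERP, a desmosomal membrane protein, was 102 TPM ± 102 in sublingual gland (SD, n = 6) and 15.3 TPM ± 6.84 in pancreas, a log2 fold change of 2.14 (SE 0.61, adjusted p 0.0166), which was not called without those libraries (1.27, adjusted p 0.208). DST, which ties keratin filaments to hemidesmosomes, was higher by 2.26 (SE 0.33, adjusted p 1.79e-05), and by 1.99 without them. ITGB4, the hemidesmosome integrin, was higher in pancreas than in liver by 2.88 (SE 0.36, adjusted p 3.07e-07). Of the 19 genes of this list in the table, 11 were higher in sublingual libraries 1 and 4 than in the other 4 sublingual libraries, where 19.3% of genes of at least 1 TPM were. The list was not held to that minimum, so the sets are unlike. By the same count, 6 of 20 tight junction partners and 10 of 18 epithelial identity genes were higher, and 0 and 2 lower.

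Of 16 tested epithelial identity genes, 9 were higher and 0 lower in sublingual gland than in pancreas, also without libraries 1 and 4, where 10.4% of all genes were higher. In pancreas 7 were higher and 1 lower than in liver, where 6.76% of all genes were higher and 23.6% lower. The median log2 difference of the list was 1.83 for sublingual gland against pancreas, where that of all genes was 0.23. ELF3, an epithelial transcription factor, was higher in sublingual gland than in pancreas by 3.19 (SE 0.47, adjusted p 1.98e-05), and by 2.28 without those libraries. EPCAM, the epithelial adhesion molecule, was 39.2 TPM ± 19.6 in pancreas and 5.21 TPM ± 2.45 in liver (SD, n = 6), a difference of 2.43 (SE 0.44, adjusted p 0.000104). CDH1, which encodes E-cadherin, went the other way, with 17.1 TPM ± 8.22 in liver and 6.39 TPM ± 3.28 in pancreas (-1.36, SE 0.38, adjusted p 0.0069).

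Of the 113 differences called for keratins and claudins over the 10 comparisons, 71 passed the threshold in every setting run. These 71 include the differences of CLDN2, CLDN14 and KRT28 from liver, which entered the test through liver and had to differ. In all 14 alternatives, KRT5, KRT7, KRT14, KRT15, KRT17, KRT23, CLDN4, CLDN7, CLDN8 and CLDN22 were each called higher in sublingual gland than in pancreas. The same genes were each called higher in sublingual gland than in liver in all 14.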

How the data were processed

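Per the submitters' processing notes, FastQC, MultiQC, cutadapt, HISAT2, kallisto, SAMtools, featureCounts and DESeq2 were used. Their versions, the transcriptome used and how transcript values became gene values are not given in the sources used here. The authors deposited 1 table of TPM values for 21292 genes and 30 libraries. Every column has the same sum, so depth is unknown, and more of a few abundant genes means less of all others. There were 0 unused per-sample columns. No pair of libraries held identical values (0 pairs, highest correlation 0.979).

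From these values log2(TPM + 1) was computed, and the 13550 genes that reached 1 TPM in 6 or more libraries entered limma 3.58.1 (R 4.3.3), with a variance trend, tissue and animal as terms, and all 30 libraries. Benjamini-Hochberg adjustment was made within each of the 10 tissue comparisons, at a threshold of 0.05. Fold changes on this scale understate those of low genes. Animal numbers pair the libraries because same-numbered libraries come from the same animal. The deviations from tissue means correlated at 0.161 within animals and -0.0186 between animals.

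Keratins and claudins that average 20 TPM or more in a tissue are given with their level in every tissue, the others by means or ranges, and partner genes are named by the largest called differences with at least 10 TPM; some that meet this rule are not reported here. The genes and lists were chosen with earlier results of these data known. Alternatives were no animal block, only the 12 libraries compared, trimmed-mean scaling (30% of log ratios and 5% of levels trimmed, unweighted), a pseudocount of 0.1, no filter, a filter of 5 TPM, omission of 3 atypical libraries (pancreas 4 and submandibular 4, low in markers of their tissue, and parotid 6, high in muscle markers), and omission of each animal. Omission of sublingual libraries 1 and 4 was chosen after seeing the data. Tested on simulated data for sublingual gland against pancreas (13550 genes), the fit recovered 84% of genes changed by 2 on the log2 scale. It recovered 97% of those changed by 3, and 12 of 193 calls were false. Whether these shares hold for the measured libraries, several of which stood apart from their tissue, was not tested. Gene order and overlaps are from RefSeq, and no coordinates are printed because the build of the deposited values is not given in the sources used here.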

Additional observations from a re-analysis of the deposited data

Results flagged for a closer look

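Of 48 sets of 6 libraries (1 gene in 1 tissue, at a mean of at least 20 TPM), 13 held a library far outside the other 5 on the log scale, where chance gives about 2.4. Of these, 7 were in the submandibular library of animal 4. It held 1.76 TPM of CLDN10 (others 62.1 to 89.8), 3.89 TPM of CLDN3 (others 50.9 to 84.7), 7.4 TPM of CLDN4 (others 54.3 to 88.3) and 5.14 TPM of CLDN7 (others 18.8 to 30.9). The same library held 3.1 TPM of KRT18 (others 32.7 to 47.1), 2.3 TPM of KRT23 (others 33.2 to 54.7) and 4.46 TPM of KRT8 (others 47.9 to 71.3).

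In the pancreas library of animal 4, CLDN10 was 6.21 TPM (others 67.9 to 105), CLDN3 was 5.4 TPM (others 65.2 to 81.4) and CLDN7 was 9.74 TPM (others 28.9 to 44.6). In parotid, KRT14 was 109 TPM in animal 4 (others 49.3 to 63.6) and KRT18 was 21.2 TPM in animal 6 (others 41.9 to 59.3). In sublingual gland, KRT8 was 40.5 TPM in animal 4 (others 78.7 to 108).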

How the results depend on the processing

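TPM values carry no depth, so low levels have no interval here, and their share of a fixed total shifts with abundant genes. Of the 113 called differences, 1 changed direction: KRT10 in parotid against sublingual gland was 0.17 with trimmed-mean scaling. That scaling also took 28 below the threshold and reduced the genes called from 16 to 4 for parotid and from 12 to 6 for submandibular gland, each against sublingual gland, and the cause was not tested. For submandibular gland against pancreas, the 5 genes called became 13 with only the 12 libraries compared and 9 without the 3 atypical libraries (pancreas 4, submandibular 4 and parotid 6). The share of all genes called is not given with only the 12 libraries compared, without 1 animal or without the animal block. Counts under those settings therefore have no background to be read against.

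Leaving out 1 animal at a time gave 0 to 0 genes for parotid against submandibular gland, 9 to 18 for parotid and 10 to 15 for submandibular against sublingual gland, and 5 to 14, 2 to 9 and 11 to 16 for parotid, submandibular and sublingual gland against pancreas. Against liver it gave 16 to 21 for parotid, 12 to 19 for submandibular gland, 15 to 18 for sublingual gland and 5 to 11 for pancreas. Counts moved by over 1.5 times for parotid against sublingual gland without animal 1 (9) and against pancreas without animal 2 or 3 (5), for submandibular gland against pancreas without any animal (2 without 1, 3 or 6, 3 without 2 or 5, 9 without 4), and for pancreas against liver without animal 4 (11). Without animal 4 no called difference was lost (0 of 113), and without animals 1, 2, 3, 5 and 6 the losses were 18, 22, 21, 16 and 10.

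Without the animal block that pairs the libraries, 7 of the 113 were lost. The counts were then 0, 13, 9 and 17 for parotid against submandibular gland, sublingual gland, pancreas and liver, 11, 5 and 16 for submandibular against sublingual gland, pancreas and liver, 12 and 16 for sublingual gland against pancreas and liver, and 7 for pancreas against liver. The other losses were 10 with only the 12 libraries compared, 4 without a filter, 1 each with the filter of 5 TPM, the pseudocount of 0.1 and the omission of 3 libraries, and 8 without sublingual libraries 1 and 4.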
